A study of Mus musculus with 22 samples.

Results

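Livers of 14-week-old mice that lack Trim24 were compared with livers of wild-type (WT) mice of the same age, 5 animals of each genotype, on 10 of the 22 expression arrays of the series. The 10 arrays were taken by their labels: 14 weeks of age, genotype Trim24-/- or WT. The other 12 arrays come from 5-week-old mice, 4 WT, 4 Trim24-/- and 4 Trim24-/- Rara+/-, and the first 8 of these serve below as a second set of animals with the same gene lost. No treatment is labelled in any group. Trim24-/- animals carry a disrupted Trim24 gene in every cell from the germ line on, so the absence is not limited to hepatocytes or to adult life. All animals descend from intercrosses of Trim24+/- Rara+/- parents on a hybrid C57BL/6 and 129/Sv background, so littermates can differ in strain alleles as well as in Trim24. Each array holds RNA of 1 liver, and the spread between arrays is therefore a spread between animals. The labels' protocols state that livers were examined histologically before analysis, without giving the findings, and they name neither sex nor batch.

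Trim24 belongs to the tripartite motif proteins and acts as a chromatin-bound co-regulator. Its PHD finger and bromodomain read histone tails, and a nuclear receptor box lets it bind ligand-bound receptors such as retinoic acid receptor alpha (Rara), whose activity it restrains in liver. Trim24 also forms complexes with its relatives Trim28 and Trim33, and as a ubiquitin ligase it can target p53. Mice without it are known to develop hepatocellular tumours with age. Retinoic acid receptors can raise the transcription factors of the interferon response, and the series asks how far Trim24 keeps that response low in liver.

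Whole livers were measured, so fewer cells of a type and less RNA per cell cannot be told apart. Signals were on a linear scale, with 1 probe set for each of 18194 genes, and tests were run on log2(signal + 16), which understates the change of dim genes. Median signal per array was 22.9 ± 2.02 for WT livers and 22.6 ± 2.05 for mutant livers (SD, n = 5 each, 2-sided exact permutation test, p = 0.833, where the smallest p that 5 against 5 arrays allow is 0.00794). The number of arrays limits the precision. Signals of sex-linked genes lay in 1 range over all 10 arrays: Xist read 13.4 to 44.5, Eif2s3y 245 to 344, Kdm5d 50.5 to 80.2 and Uty 42.0 to 65.9, and none of the 4 passed limma's test between genotypes. The 10 hepatocyte markers, among them Alb and Apoa1, were bright on every array, with summed signals of 55587 to 77968 in WT and 52790 to 69366 in Trim24-/- livers.

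In the targeted gene itself, Trim24 signal was not lower in the mutants. The brightest of its 3 probe sets read 162, 205, 152, 143 and 176 in liver_616WT, liver_611WT, liver_613WT, liver_464WT and liver_393WT, and 219, 185, 234, 201 and 336 in liver_648M, liver_466M, liver_463M, liver_411M and liver_395M, an order kept for all genes below. The groups overlapped, and the difference was 0.43 ± 0.16 (SE) on the log2 scale (limma, adjusted p = 0.457). The next probe set gave means of 46.2 ± 8.02 and 45.2 ± 7.62 (SD, n = 5 each), and the dimmest 4.51 ± 6.65 and 8.13 ± 5.49. The sources used here do not place these probes relative to the disrupted part of the gene, so Trim24 signal does not check the labels. The partners Trim28 (-0.12, adjusted p = 0.821) and Trim33 (-0.05, adjusted p = 0.935) and the receptor Rara (-0.17, adjusted p = 0.864) did not pass limma's test. Among the 40 measured genes nearest to Trim24 in the RefSeq gene order, 0 were called with limma, 2 higher and 2 lower had an unadjusted p under 0.05, and the median change was 0.01.

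At 14 weeks 44 genes passed a Benjamini-Hochberg adjusted p of 0.05 in limma, 0.242% of those tested. Of these, 33 were higher in Trim24-/- livers (0.181% of genes tested) and 11 lower (0.0605%), and 31 changed at least 2-fold, 26 upward and 5 downward. The 5 mutant and 5 WT arrays did not overlap for any of the 44. Groups without overlap were found for 324 genes in all (1.78%), 194 of them higher (1.07%) and 130 lower (0.715%). At an unadjusted p under 0.05 there were 1498 genes (8.23%), 847 higher and 651 lower, the background for all list counts at that p below. The count rested on the number of animals: leaving out liver_611WT gave 28 calls, as did leaving out liver_466M, and it was 30 to 39 without any other single array. A set of 17 genes was called under every alternative but the 2-fold minimum, and 4 more under all of these in which they were tested, their signal being too low for the fit on brighter genes. Of 18 called genes with further probe sets, 17 had all of them moving in the same direction, Cplane1 being the exception. That count takes the sign alone, whatever the size of the change. A further probe set was called too for 7 of the 18.

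**Figure D1:**
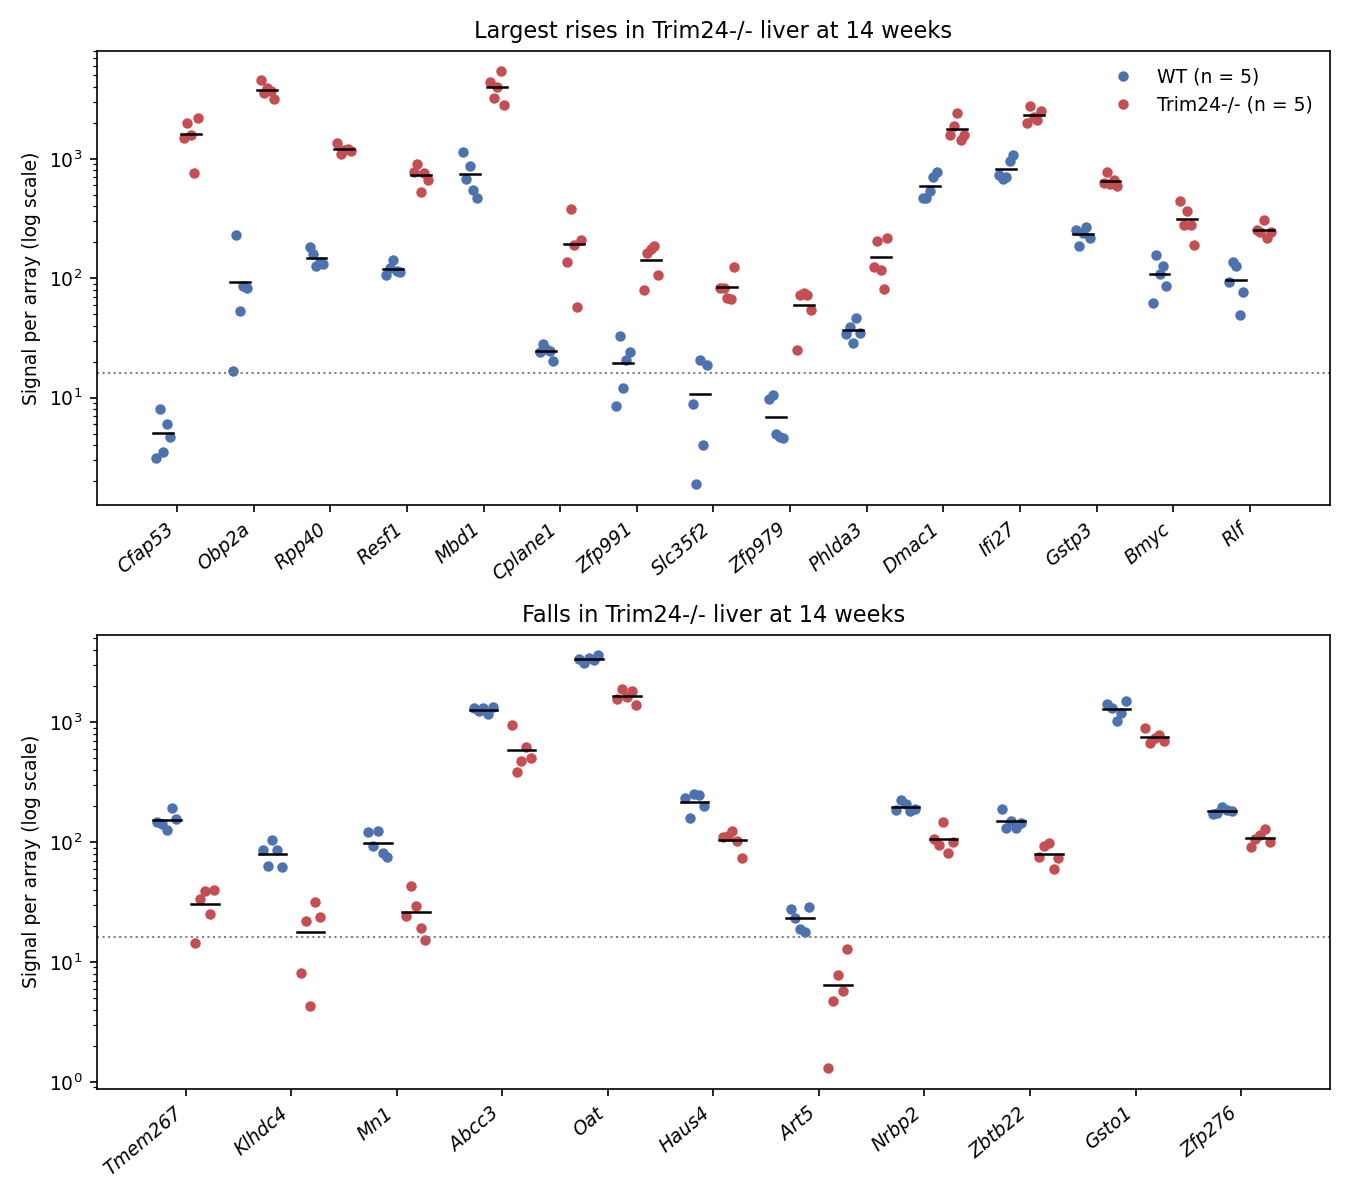
Signal per array on a log axis for the 15 largest rises (top) and all 11 falls (bottom) among genes called at 14 weeks, with 5 WT (blue) and 5 Trim24-/- (red) arrays per gene, black bars at the group means and a dotted line at the pseudocount of 16. The groups stand apart for every gene shown, from Cfap53 with a log2 difference of 6.19 at the left of the top panel to Zfp276 with -0.68 at the right of the bottom panel.

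The strongest change was in Cfap53, a protein of cilia and flagella that liver barely expressed in WT. Cfap53 read 3.13, 8.01, 3.503, 6.01 and 4.66 in WT and 1505, 2010.2, 1584, 767 and 2206 in Trim24-/- livers. No WT array reached the pseudocount, whereas all 5 mutant arrays were bright. The difference was 6.19 ± 0.24 (SE) on the log2 scale (limma, adjusted p = 1.14e-07), with 4.52 under a pseudocount of 64 and 8.03 under a pseudocount of 1, so the size, but not the direction, depends on the pseudocount. The gene next to it in the RefSeq order is Mbd1, a methyl-CpG-binding repressor, and it rose with it. Mbd1 read 1147, 683, 874, 551 and 471 in WT and 4409.6, 3221, 4013, 5405 and 2835 in Trim24-/- livers. The groups did not overlap, the difference was 2.42 ± 0.24 (adjusted p = 9.14e-04), and the 4 further probe sets of Mbd1 were called too, with changes of 2.63 to 4.01. The measured gene on the other side of Cfap53, Myo5b, changed by 0.29 (adjusted p = 0.551), and Cxxc1, beyond Mbd1, by 0.14 (adjusted p = 0.847).

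A second adjacent pair rose in the same way. Obp2a encodes an odorant-binding lipocalin, and Obp2a read 16.8, 229, 53.7, 86.9 and 83.7 in WT and 4606, 3583, 3908, 3689 and 3166 in Trim24-/- livers. Every mutant array was bright, while WT arrays spread over a wide low range, and the difference was 5.40 ± 0.40 (limma, adjusted p = 6.02e-05). Its neighbour Bmyc, a relative of Myc, is dimmer. Bmyc read 62.0, 156, 108, 127 and 86.8 in WT and 447, 281, 368, 277 and 192 in Trim24-/- livers. The groups stood apart by a narrow margin, at 1.41 ± 0.24 (adjusted p = 0.0375), and the call was lost without any 1 array other than liver_611WT and liver_395M (adjusted p up to 0.108) and in 2 of the settings that left out no array (up to 0.12). The lipocalins Lcn5 and Lcn3, which flank this pair, stayed near or below 10 in both genotypes, at 9.74 and 7.94 for Lcn5 and 5.58 and 5.93 for Lcn3 in WT and mutant means.

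Zinc-finger genes of one cluster formed another group of neighbours. Zfp991, Zfp979, Gm13238 and the pseudogene Znf41-ps lie within 5 measured genes of one another along a chain in the RefSeq order, and all 4 rose. Zfp991 read 8.51, 32.6, 12.02, 20.7 and 24.4 in WT and 79.3, 162, 178, 188 and 107 in Trim24-/- livers. Zfp979 read 9.69, 10.5, 4.96, 4.71 and 4.61 in WT and 25.3, 72.4, 75.1, 73.1 and 54.1 in Trim24-/- livers. All mutant arrays of both genes were above all WT arrays, with differences of 2.14 ± 0.24 and 1.68 ± 0.21 (limma, adjusted p = 0.00224 and 0.00373). Gm13238 rose from a mean of 5.77 to 37.4 (1.28, adjusted p = 0.0113) and Znf41-ps from 22.6 to 62.5 (1.01, adjusted p = 0.0113). These genes are close relatives, and a probe set of one can read RNA of another, so they may not be 4 separate measurements. Measured genes between these 4 were not called, and their groups overlapped. In limma, 1700095A21Rik was at -0.10 (adjusted p = 0.909), Rex2 at -0.05 (0.973), 4933438K21Rik at 0.51 (0.489) and Zfp982 at 0.62 (0.270). Zfp980, beside Znf41-ps, was at 0.09 (adjusted p = 0.921). Of 336 measured genes with a Zfp symbol 3 were called with limma (background 0.242%), Zfp991 and Zfp979 higher and Zfp276 lower. At an unadjusted p under 0.05, 22 of the 336 were higher and 13 lower (847 and 651 of all 18194 genes), and the median was 0.04.

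Rlf, a zinc-finger protein, and Zmpste24, the protease that matures lamin A, are 2 measured genes apart and were both higher. Rlf read 93.8, 138, 126, 49.2 and 77.4 in WT and 255, 244, 306, 218 and 244 in Trim24-/- livers. Zmpste24 read 637, 615, 615, 583 and 533 in WT and 1011, 1026, 1077, 859.7 and 911 in Trim24-/- livers. Differences were 1.31 ± 0.21 (adjusted p = 0.0249) and 0.69 ± 0.10 (adjusted p = 0.0142), and with 1 array left out the call was lost in 6 of 10 cases for Rlf (liver_616WT or liver_393WT, or liver_648M, liver_466M, liver_463M or liver_395M) and in 2 for Zmpste24 (liver_648M or liver_466M). Over all alternatives the adjusted p of Rlf reached 0.316 and that of Zmpste24 0.059. The value for Rlf came with the mean of all its probe sets, where its change was 0.66. In all, 10 of the 44 called genes (22.7%) had another called gene within 5 measured genes, against 2.15% of 18032 genes with a position. All 7 such pairs changed in the same direction. Both counts include Zfp991, Zfp979, Gm13238 and Znf41-ps of the zinc-finger cluster, which may not be separate measurements.

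Other large rises came from genes with no called gene within 5 measured genes. Rpp40 encodes a protein subunit of ribonuclease P and RNase MRP, which process tRNA and ribosomal RNA precursors. Rpp40 read 183, 159, 126, 136 and 133 in WT and 1349, 1102, 1187, 1205 and 1155 in Trim24-/- livers. Both groups were tight and far apart, at 2.90 ± 0.12 or 7.48-fold (limma, adjusted p = 1.14e-07), and its other probe set gave 2.81. Resf1 encodes a retroelement silencing factor that works with the histone methyltransferase Setdb1. Resf1 read 107, 123, 143, 116 and 113 in WT and 783, 905, 525, 759 and 661 in Trim24-/- livers. The groups did not overlap (2.43 ± 0.14, adjusted p = 6.50e-06), and its 3 further probe sets were higher by 1.07 to 1.59. In the list of 13 retroelement silencing and methyl-CpG-binding genes, which does not hold Resf1, only Mbd1 was called with limma (called background 0.242%), 4 were higher at an unadjusted p under 0.05, and the list median was 0.11 against 0.00 over all genes. Zfp445, a zinc-finger regulator of imprinted loci, was the next member, at 904 ± 162 in WT and 1410.5 ± 72.4 in Trim24-/- livers (SD, n = 5; 0.65, adjusted p = 0.0897).

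Slc35f2, a solute carrier, went from near nothing to a low signal. Slc35f2 read 8.79, 1.88, 20.7, 4.03 and 18.8 in WT and 82.2, 83.0, 68.1, 66.6 and 124 in Trim24-/- livers. No array of one group reached the other (1.94 ± 0.22, limma adjusted p = 0.00224), though its second probe set changed by only 0.02, and the call was lost with a pseudocount of 1 and with the mean of all probe sets (adjusted p up to 0.0686). Dmac1 encodes an assembly factor of respiratory complex I in mitochondria. Dmac1 read 467, 471, 535, 699.6 and 784 in WT and 1584, 1879, 2403, 1438 and 1598 in Trim24-/- livers. The lowest mutant array was well above the highest WT array, and the difference was 1.57 ± 0.18 (adjusted p = 0.00237). Cdpf1 rose less and read 31.4 ± 4.06 in WT and 73.6 ± 10.2 in Trim24-/- livers (0.92 ± 0.11, adjusted p = 0.00346). Cplane1, which takes part in building cilia, read 24.3, 28.1, 25.5, 24.8 and 20.4 in WT and 137, 378, 190.1, 57.7 and 209.7 in Trim24-/- livers. Its difference of 2.18 ± 0.34 (adjusted p = 0.0219) came with 3 of 6 further probe sets moving the same way, over a range of -0.27 to 2.98, and the call was lost without any 1 array other than liver_648M, liver_466M and liver_411M (adjusted p up to 0.0694) and in 1 of the settings that left out no array (up to 0.0668).

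Interferon-response genes gave few calls and a positive list median. Of 52 measured interferon-stimulated genes, 2 passed limma's test over all genes, Ifi27 and Usp18, both higher (background for higher calls, 0.181%). At an unadjusted p under 0.05, 21 of the 52 were higher and 0 lower, where 847 and 651 of all 18194 genes were. The groups stood apart for 9 of the 52, all higher (background 1.07%), 50 had a positive change, and the list median was 0.30 against 0.00 over all genes. Averaged over the 52 genes, log2 level per array ran from 6.73 to 6.96 in WT and from 7.03 to 7.53 in Trim24-/- livers, so every mutant array was above every WT array. This list was drawn up with results of these arrays known, and its direction is not independent evidence.

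Ifi27, an interferon-induced protein of mitochondrial membranes, was the member of smallest p. Ifi27 read 726, 677, 707, 951 and 1075 in WT and 2015, 2769, 2261, 2126 and 2496 in Trim24-/- livers. The lowest mutant array was well above the highest WT array, and the difference was 1.49 ± 0.15 (limma, adjusted p = 9.14e-04), with 1.83 from its second probe set. Its relative and RefSeq neighbour Ifi27l2a read 67.0 ± 9.005 in WT and 173 ± 65.7 in Trim24-/- livers (SD, n = 5), with the groups apart, but did not pass (1.12, adjusted p = 0.0596), and probe sets of this family may read more than 1 member. Usp18 removes the ubiquitin-like ISG15 from proteins and damps signalling from the type I interferon receptor. Usp18 read 68.0, 111, 109, 85.1 and 110.4 in WT and 185, 316, 289.5, 147 and 277 in Trim24-/- livers. The groups did not overlap (1.17 ± 0.21, adjusted p = 0.0469), but the call was lost when any array other than liver_411M was left out (adjusted p up to 0.134) and in 5 of the settings that left out no array (up to 0.123). Gbp8, an interferon-inducible guanylate-binding protein outside the list and named after its values were seen, read 18.8 ± 2.83 in WT and 39.5 ± 6.22 in Trim24-/- livers (0.67 ± 0.11, adjusted p = 0.0352), a call lost without any 1 array other than liver_616WT and liver_411M (adjusted p up to 0.121) and in 3 of the settings that left out no array (up to 0.168).

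Other interferon genes stood apart between the groups or had positive medians without a call. The antiviral synthetase Oas1a read 94.0 ± 17.4 in WT and 184 ± 44.9 in Trim24-/- livers (0.85, limma adjusted p = 0.0787), Oasl2 41.5 ± 3.97 in WT and 69.6 ± 10.8 in Trim24-/- livers (0.57, adjusted p = 0.0787), and the nucleic acid sensor Zbp1 21.9 ± 12.7 in WT and 65.6 ± 24.3 in Trim24-/- livers (1.13, adjusted p = 0.146). Bst2, which tethers budding virus particles to the cell, read 883 ± 116 in WT and 1339.7 ± 225 in Trim24-/- livers (0.59, adjusted p = 0.173). In each of these 4 genes all mutant arrays were above all WT arrays, without an adjusted p under 0.05. The 9 interferon-inducible GTPases, which attack vacuoles of pathogens inside cells, had 0 calls with limma, 8 higher and 0 lower at an unadjusted p under 0.05 (847 and 651 of all 18194 genes), and a median of 0.53. Irgm1 (0.67, adjusted p = 0.25) and Gbp7 (0.53, adjusted p = 0.278) had the smallest p among them. Of 19 receptors, kinases and transcription factors of interferon signalling, 0 were called with limma, 7 were higher and 1 lower at an unadjusted p under 0.05, and the median was 0.27, or 0.10 when all probe sets of a gene were averaged and 0.17 with a pseudocount of 64. Irf7, an activator of interferon genes, was at 0.54 (adjusted p = 0.173), and Irf2, which represses part of the response, at -0.59 (adjusted p = 0.103) with its groups apart.

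Promoter sequence shows which of these genes carry the binding motif of interferon-activated transcription factors. The motif, 2 copies of GAAA with 2 free bases between them, was searched on both strands of RefSeq promoter windows of 300 bases (build GRCm38.p6, 250 bases before to 50 after a gene's start). It occurred in 3.43% of 32817 windows. Among interferon-stimulated genes with a window 15 of 37 held it (40.5%), and among the GTPases 6 of 7 (85.7%). Here and below, a gene with several windows was counted if any of them held the motif, whereas the background share counts each window. Of the 44 called genes 29 had a window, and only that of Cyp4v3 held the motif. Ifi27 and Usp18 were among the called genes without a window, so their promoters were not searched. The windows of Oas1a and Bst2 are printed because these genes had the smallest unadjusted p among members of the 2 lists with a match. Each carries 2 overlapping matches. The window of Cyp4v3 is printed because Cyp4v3 is the one called gene with a match. All are from the minus strand of the chromosome and run 5′ to 3′ along the gene, with motif matches in capitals, in Cyp4v3 as the reverse complement. They were chosen after the values were seen, and a match describes letters in a window, not a bound site.
Oas1a, chr5:120907476-120907775: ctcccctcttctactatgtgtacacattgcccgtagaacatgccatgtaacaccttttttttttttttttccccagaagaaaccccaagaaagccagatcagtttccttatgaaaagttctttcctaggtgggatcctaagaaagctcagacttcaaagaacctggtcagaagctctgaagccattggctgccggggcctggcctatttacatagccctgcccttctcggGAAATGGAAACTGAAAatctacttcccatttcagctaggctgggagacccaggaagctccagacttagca
Bst2, chr8:71537423-71537722: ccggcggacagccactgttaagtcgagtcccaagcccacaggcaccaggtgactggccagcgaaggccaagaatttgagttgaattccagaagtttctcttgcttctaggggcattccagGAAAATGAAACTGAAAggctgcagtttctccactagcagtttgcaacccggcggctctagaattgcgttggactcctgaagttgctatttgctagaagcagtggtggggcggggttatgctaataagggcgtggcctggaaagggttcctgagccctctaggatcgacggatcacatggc
Cyp4v3, chr8:45333114-45333413: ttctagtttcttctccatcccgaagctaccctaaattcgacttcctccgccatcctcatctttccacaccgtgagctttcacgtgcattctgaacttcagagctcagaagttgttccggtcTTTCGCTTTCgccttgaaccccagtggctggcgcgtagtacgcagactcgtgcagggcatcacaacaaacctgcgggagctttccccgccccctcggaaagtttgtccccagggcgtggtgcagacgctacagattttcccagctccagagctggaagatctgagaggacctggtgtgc

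Matches to 2 other motifs were counted in the same windows. TTCNNNGAA, a STAT motif in which N is any base, lay in 8.29% of all windows and in 1 of the 29, that of Dmac1. A retinoic acid receptor motif, 2 copies of AGGTCA with 5 free bases between them, lay in 0.00914% of windows (3 of 32817) and in 0 of the 29. In this exact form it is so rare that 0 of 29 could hardly have come out otherwise, and no conclusion is drawn from it. All were searched on both strands, and no match says only that these letters are absent from the window.

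Macrophage markers also had a positive median and no call. Of 20 Kupffer cell and macrophage markers 0 were called with limma (background 0.242%), but 12 were higher and 0 lower at an unadjusted p under 0.05, 19 had a positive change and the median was 0.44. Of all 18194 genes 847 were higher and 651 lower at that p, 9155 had a positive change and the median was 0.00. These markers, too, were chosen with earlier results of these data known. Their summed signal ran from 4728 to 6269 in WT and from 5659 to 10628 in Trim24-/- livers, and the groups overlapped. Vsig4 read 339, 329, 368, 333 and 316 in WT and 492, 449, 581, 412 and 729 in Trim24-/- livers, apart between the groups (0.61, adjusted p = 0.17), for this complement receptor of resident macrophages. Clec4f, a lectin that defines Kupffer cells, read 608 ± 95.2 in WT and 839 ± 174 in Trim24-/- livers (SD, n = 5; 0.44, adjusted p = 0.467) and Mpeg1, a pore-forming protein of macrophages, was at 0.77 (adjusted p = 0.313). The 8 MHC class II genes, which present antigen on macrophages and dendritic cells, had a median of 0.55, with 0 calls and 5 higher at an unadjusted p under 0.05, led by H2-Ab1 (0.65, adjusted p = 0.387). The 13 genes of MHC class I and the immunoproteasome had 0 calls, 1 higher and 1 lower at an unadjusted p under 0.05, and a median of 0.01. The part of these markers in the interferon values was not tested.

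**Figure D2:**
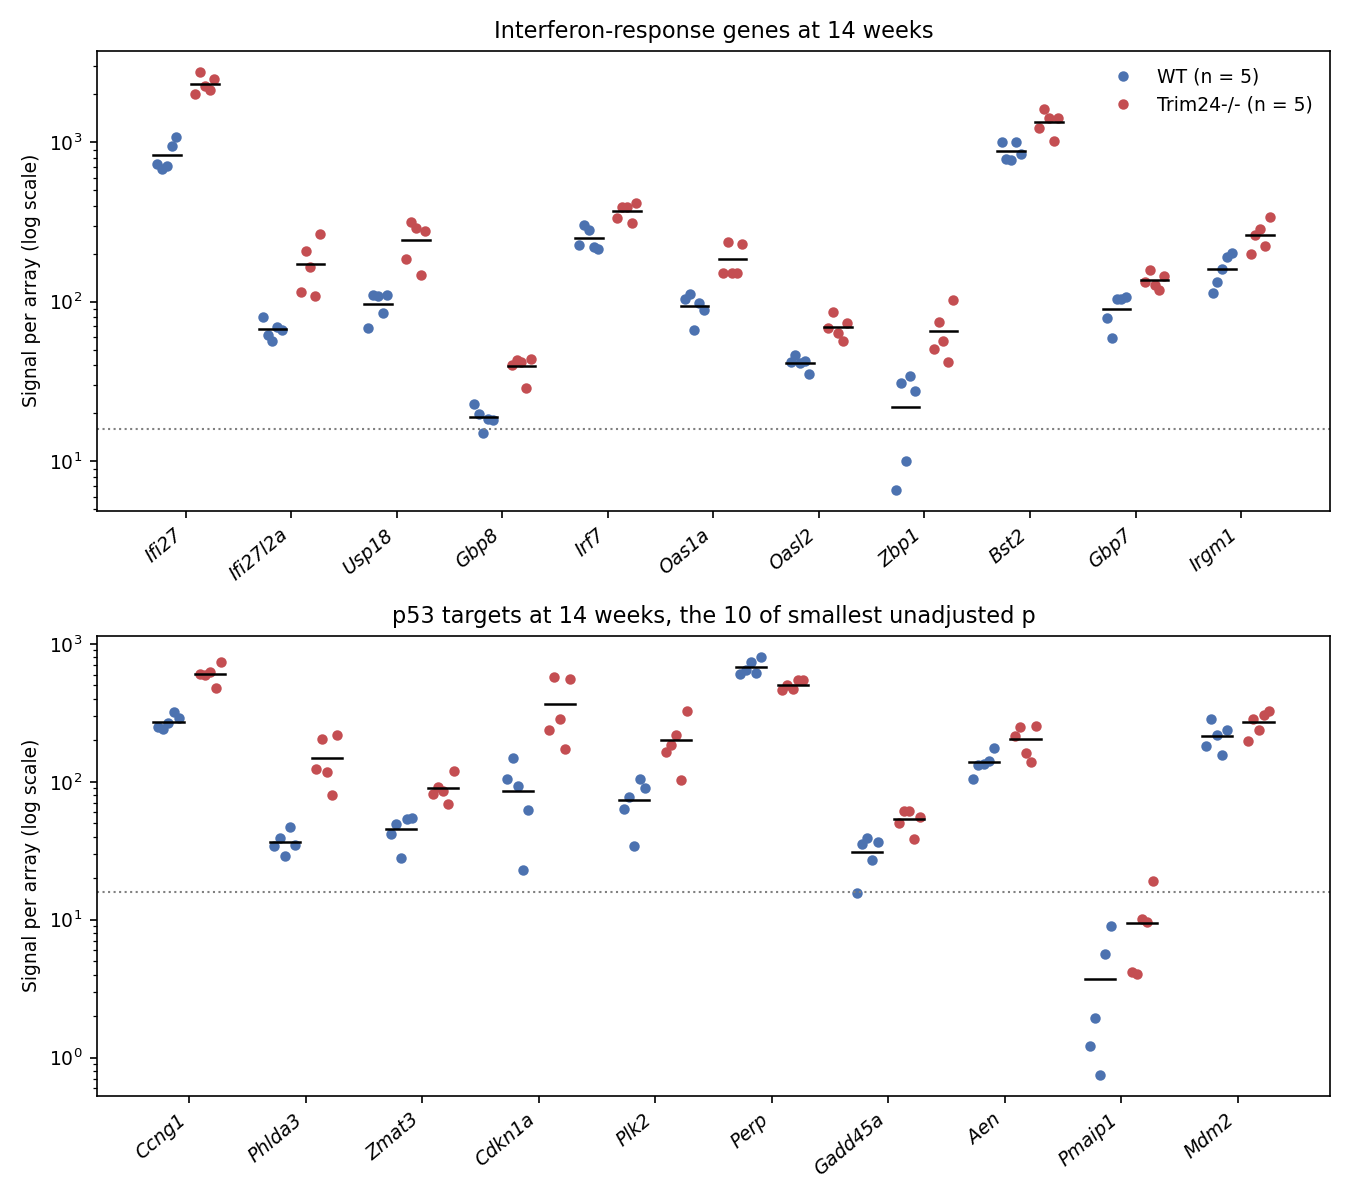
Signal per array on a log axis for interferon-response genes (top) and the 10 p53 targets of smallest unadjusted p (bottom) at 14 weeks, 5 WT (blue) and 5 Trim24-/- (red) arrays per gene, with black bars at group means and a dotted line at the pseudocount of 16. Ifi27, with WT arrays at 677 to 1075 and mutant arrays at 2015 to 2769, and Ccng1, with 243 to 320 against 479 to 738, do not overlap between the groups.

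Targets of p53, the stress-activated tumour suppressor, included 2 called genes out of 18 measured, both higher (background for higher calls, 0.181%). Ccng1, cyclin G1, is a direct p53 target that feeds back on its regulation. Ccng1 read 251, 243, 266, 319.7 and 289 in WT and 606, 597, 629.7, 479 and 738 in Trim24-/- livers. The groups did not overlap, its 2 further probe sets were higher by 1.10 and 1.28, and the difference was 1.11 ± 0.13 or 2.15-fold (limma, adjusted p = 0.00237). Phlda3 encodes a p53-induced inhibitor of the kinase Akt. Phlda3 read 34.3, 39.3, 28.7, 46.9 and 34.9 in WT and 123, 205, 118, 80.6 and 219 in Trim24-/- livers. No WT array reached the lowest mutant array, liver_411M (1.58 ± 0.22, adjusted p = 0.0113). Cdkn1a, the p21 inhibitor of cyclin-dependent kinases, read 105, 148, 93.6, 22.9 and 62.2 in WT and 236, 579, 284, 173 and 562 in Trim24-/- livers. Its groups stood apart and its mean difference was larger, 1.91 ± 0.40, but its spread between animals was wide and it did not pass in this probe set (adjusted p = 0.103), whereas its second probe set passed in the fit over all probe sets, at 2.17.

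Across the p53 list 7 genes were higher and 1 lower at an unadjusted p under 0.05 (847 and 651 of all 18194 genes), and the median was 0.23, which became 0.10 when all probe sets of a gene were averaged and 0.13 with a pseudocount of 64. Zmat3, an RNA-binding p53 target, was at 0.78 (limma, adjusted p = 0.0951) with its groups apart, and the kinase Plk2 at 1.23 (adjusted p = 0.156). Mdm2, the ubiquitin ligase that p53 induces and that degrades it, was at 0.31 (adjusted p = 0.702). Perp, a membrane protein that p53 also induces, was the 1 lower gene, at -0.41 (adjusted p = 0.27). The groups stood apart for 4 list members upward and for 1 downward (backgrounds 1.07% and 0.715%). Among 25 cell cycle genes 0 were called, 3 were higher and 1 lower at an unadjusted p under 0.05, and the median was 0.19. The p53 half-site was searched in the same windows after the values were seen. It lay in 8.36% of all windows, in 7 of 13 list members with a window (53.8%) and in 2 of 29 called genes, Ccng1 and Olfm1. The window of Ccng1, minus strand, carries it at position -185 from the start, in capitals.
Ccng1, chr11:40755237-40755536: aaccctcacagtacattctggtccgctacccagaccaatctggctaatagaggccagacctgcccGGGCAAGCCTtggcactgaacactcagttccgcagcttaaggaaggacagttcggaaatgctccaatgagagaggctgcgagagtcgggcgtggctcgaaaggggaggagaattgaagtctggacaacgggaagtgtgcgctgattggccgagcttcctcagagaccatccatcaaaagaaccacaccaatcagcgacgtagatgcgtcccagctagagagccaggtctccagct

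Liver tumour and fetal markers were examined because mice without Trim24 are known to develop hepatocellular tumours. Of 14, 0 were called with limma, 4 were higher and 0 lower at an unadjusted p under 0.05, and the median was 0.32 (0.21 without liver_395M, 0.19 with a pseudocount of 64 and 0.52 with 1). Afp, the fetal serum protein, read 7.92, 1.21, 11.8, 11.7 and 4.90 in WT and 25.7, 81.4, 31.1, 20.6 and 48.6 in Trim24-/- livers. No WT array reached the pseudocount and all mutant arrays did, though the gene did not pass (1.22 ± 0.25, adjusted p = 0.0875). Akr1b8, an aldo-keto reductase raised in liver tumours, was at 0.60 (adjusted p = 0.303).

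Metabolic genes gave single calls rather than whole pathways. Oat, ornithine aminotransferase, is expressed by hepatocytes around the central vein. Oat read 3359.7, 3099, 3395, 3315 and 3601 in WT and 1569, 1898, 1618, 1815 and 1394 in Trim24-/- livers. The groups were tight and apart, and Oat fell 2.02-fold (-1.02 ± 0.11, limma, adjusted p = 0.00152). It was the one called gene of 12 pericentral markers (background for lower calls, 0.0605%), whose median was -0.13 (-0.20 without liver_616WT and -0.05 without liver_464WT). Glul, glutamine synthetase of the same cells, read 1602, 2444, 2496, 2336 and 2055 in WT and 1308, 1481, 1076, 1439.8 and 1306 in Trim24-/- livers. Slc1a2, a glutamate transporter of this zone, read 485, 363, 309.6, 399 and 322 in WT and 90.9, 212, 177, 63.0 and 209 in mutants. Both genes were lower on every mutant array than on any WT array without passing (-0.71, adjusted p = 0.0833, and -1.34, adjusted p = 0.103). The 9 other pericentral markers, Cyp2e1 (-0.15) and Cyp1a2 (0.12) among them, did not stand apart.

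Single enzymes and transporters of detoxification changed in both directions. Gstp3, a pi-class glutathione S-transferase, read 256, 185, 238, 270.2 and 219.5 in WT and 629.6, 772, 620.5, 671 and 597 in Trim24-/- livers. It rose 2.71-fold with no overlap (1.44 ± 0.12, limma, adjusted p = 2.25e-04), while its close relative and neighbour Gstp1 changed by 0.00. Gsto1, of the omega class, fell and read 1287 ± 189.8 in WT and 755 ± 87.0 in Trim24-/- livers (SD, n = 5; -0.75 ± 0.13, adjusted p = 0.0375). When 1 array was left out, the Gsto1 call was kept only without liver_613WT or liver_648M (adjusted p up to 0.123). That call was also lost in 4 of the settings that left out no array (up to 0.117). Abcc3 exports bile acid and drug conjugates to blood. Abcc3 read 1318, 1232, 1309, 1165 and 1339.9 in WT and 947, 386, 476, 619.6 and 503 in Trim24-/- livers. It fell 2.24-fold (-1.16 ± 0.20, adjusted p = 0.0352) with liver_648M nearest to WT, and the call was lost when any array other than that one was left out (adjusted p up to 0.106) and in 2 of the settings that left out no array (up to 0.113). It was the 1 called gene of 15 hepatobiliary transporters (background 0.242%; 1 higher and 2 lower at an unadjusted p under 0.05; list median -0.14).

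A pair of cytochromes P450 that act on fatty acids were among the rises. Cyp4v3, which hydroxylates fatty acids, read 1854, 2244, 2405, 2526 and 2414 in WT and 5017, 4701, 4492, 4834 and 3656 in Trim24-/- livers. It was called without overlap (0.98 ± 0.12, limma, adjusted p = 0.00433), and its second probe set gave 1.29. Cyp2u1, another fatty acid hydroxylase, rose and read 95.3 ± 17.7 in WT and 217 ± 48.6 in Trim24-/- livers (1.05 ± 0.17, adjusted p = 0.0249), a call lost without any 1 array other than liver_616WT and liver_395M (adjusted p up to 0.0839) and in 1 of the settings that left out no array (up to 0.0836). It was the one called gene among 23 of families 1 to 3 (background for higher calls, 0.181%), where 3 were higher and 0 lower at an unadjusted p under 0.05 and the median was 0.10. Of 26 phase II enzymes 0 were called, 3 were higher and 0 lower at an unadjusted p under 0.05 (median 0.03), and Gstm3, a mu-class transferase, read 973 ± 448 in WT and 2515 ± 546 in Trim24-/- livers with the groups apart (1.45, adjusted p = 0.0787).

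Lipid and fasting genes gave no calls with limma. Lipid droplet and steatosis genes had a negative change in 13 of 14 members, 4 lower and 0 higher at an unadjusted p under 0.05 (651 and 847 of all 18194 genes), with a median of -0.37. That median was -0.15 when liver_393WT was left out, -0.22 for liver_411M and -0.56 for liver_395M. Plin4, a droplet coat protein, read 106 ± 37.6 in WT and 44.9 ± 21.8 in Trim24-/- livers (-1.01, adjusted p = 0.277), and Cd36, a fatty acid transporter, 356 ± 249 in WT and 137 ± 30.3 in Trim24-/- livers (-1.08, adjusted p = 0.343). Of 12 gluconeogenesis and fasting genes 5 were lower and 0 higher at an unadjusted p under 0.05 (median -0.20, or -0.38 without liver_393WT and -0.12 without liver_395M), with Pcx, pyruvate carboxylase, at -0.36 (adjusted p = 0.328). Fatty acid oxidation and PPARa targets (23 genes, 2 lower at an unadjusted p under 0.05, median -0.14), fatty acid synthesis (18, -0.11), cholesterol synthesis (17, 0.10) and bile acid synthesis (14, 2 lower, -0.09) lay close to the median of all genes, 0.00. Nr0b2, the nuclear receptor SHP that represses bile acid synthesis, was at -0.79 (adjusted p = 0.367).

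Retinoid genes, the targets nearest to Rara, showed no call. The 13 receptors and targets had a median of -0.04, and the 18 genes of retinoid storage and oxidation -0.10, with 1 higher and 1 lower and with 1 higher and 0 lower at an unadjusted p under 0.05. Cyp26a1 breaks down retinoic acid and is a direct target of its receptors. Cyp26a1 read 51.4, 227, 78.1, 79.0 and 221 in WT and 53.1, 69.5, 40.3, 61.9 and 41.8 in Trim24-/- livers. The mutant arrays sat together at the low end of a wide WT range and overlapped it (-0.91 ± 0.34, limma, adjusted p = 0.467). Rarb, a receptor that retinoic acid itself induces, was at 0.30 (adjusted p = 0.492).

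Apart from Oat, Gsto1 and Abcc3, 8 further genes fell. Tmem267, a membrane protein, read 147, 142, 127, 191 and 156 in WT and 14.3, 33.2, 39.1, 24.9 and 40.1 in Trim24-/- livers, with a wide gap (-1.89 ± 0.17, limma, adjusted p = 4.71e-04). Klhdc4, a kelch-domain protein, read 86.0, 63.7, 103, 85.7 and 61.9 in WT and 8.12, 21.8, 4.31, 31.4 and 23.8 in mutants (-1.56 ± 0.23, adjusted p = 0.0142). The call of Klhdc4 was lost with a pseudocount of 1 (adjusted p = 0.149) and that of Tmem267 with all 22 arrays in 1 fit (adjusted p = 0.061). Mn1 is a transcriptional co-regulator. Mn1 read 120.2, 92.8, 124, 81.0 and 74.6 in WT and 23.9, 43.2, 29.1, 19.1 and 15.2 in Trim24-/- livers (-1.46 ± 0.19, adjusted p = 0.00481). In all 3 genes the mutant arrays lay close to the pseudocount of 16, from 4.31 to 43.2. Haus4, a subunit of the augmin complex of the spindle, fell by 0.95 (adjusted p = 0.0249), Nrbp2, a pseudokinase, by 0.81 (adjusted p = 0.0352), the zinc-finger genes Zbtb22 by 0.79 (adjusted p = 0.0483) and Zfp276 by 0.68 (adjusted p = 0.0239), and Art5, an ADP-ribosyltransferase at 23.3 in WT and 6.49 in mutants, by 0.82 (adjusted p = 0.0483). When 1 array was left out, those calls were kept only for Haus4 without liver_611WT or liver_463M, Zfp276 without liver_616WT or liver_411M, Nrbp2 without liver_463M and Art5 without liver_395M, with an adjusted p of up to 0.21 for Art5 over all alternatives that gave it a value other than the 2-fold minimum.

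The remaining rises spanned unrelated functions. Atp1b3, the beta-3 subunit of the sodium pump, rose 2.03-fold and read 435 ± 43.1 in WT and 911 ± 166 in Trim24-/- livers (SD, n = 5; limma, adjusted p = 0.00553). Olfm1, a secreted olfactomedin, read 23.1 ± 7.33 in WT and 77.7 ± 15.6 in Trim24-/- livers (1.27 ± 0.16, adjusted p = 0.00373), and Sertad4 11.7 ± 3.76 in WT and 47.7 ± 15.1 in Trim24-/- livers (1.18 ± 0.17, adjusted p = 0.014). These 3 calls held when any 1 array was left out. Slpi, an inhibitor of leukocyte proteases, rose by 1.17 (adjusted p = 0.0219), Gabra3, a GABA receptor subunit, by 1.03 (adjusted p = 0.0249), Rassf3, a Ras-association protein, by 0.61 (adjusted p = 0.0352), and Sparcl1, a matrix protein, by 0.84 (adjusted p = 0.0352). Diaph3, an actin-nucleating formin, was near nothing in WT at 2.93 and reached 27.3 in mutants (1.14, adjusted p = 0.0249), and the imprinted gene Phlda2 went from 4.67 to 21.1 (0.85, adjusted p = 0.0375). When 1 array was left out, those calls were kept only for Gabra3 without liver_616WT, liver_613WT, liver_463M or liver_395M, Diaph3 without liver_648M, liver_466M or liver_463M, Slpi without liver_393WT or liver_411M, Phlda2 without liver_464WT or liver_411M, Sparcl1 without liver_464WT or liver_395M and Rassf3 without liver_393WT. Over all alternatives the adjusted p of Rassf3 reached 0.293.

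The 5-week animals allowed the same contrast in other mice with their own WT controls. Their sex-linked signals had the opposite pattern to those at 14 weeks, so every comparison of ages below is also one of that pattern. At that age 109 genes were called (0.599% of those tested), 86 higher (0.473%) and 23 lower (0.126%), from a fit that took its spread from all 12 arrays of that age. Called at both ages were 17 genes, 38.6% of the 44 and 15.6% of the 109, and 0 were called in opposite directions: Cfap53, Resf1, Obp2a, Gstp3, Mbd1, Ifi27, Zfp991, Zfp979, Cyp4v3, Sertad4, Gabra3, Cyp2u1, Bmyc, Phlda2 and Usp18 were higher and Oat and Mn1 lower at each age. The count of 17 fell to 5 without 5-week liver_45WT, 6 without liver_8KO, 9 without liver_1KO and 10 without liver_44WT, as the 5-week count itself fell to 12, 14, 29 and 39. In sign, 41 of the 44 changed the same way at 5 weeks, against 56.8% of all genes, and for 26 the groups also stood apart there (background 5.52%).

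Shared genes differed in how their sizes compared between ages. Oat at 5 weeks read 5525 ± 1641 in WT and 2274 ± 223 in Trim24-/- livers (SD, n = 4; -1.23, limma, adjusted p = 0.0194), Gstp3 288 ± 98.3 in WT and 763 ± 38.9 in Trim24-/- livers (1.42, adjusted p = 0.0146) and Cyp4v3 2258 ± 281 in WT and 4748 ± 692 in Trim24-/- livers (1.06, adjusted p = 0.00269), close to the 14-week differences of -1.02, 1.44 and 0.98. Mbd1 went from 3.17 at 5 weeks to 2.42 at 14, and Cyp2u1 from 2.48 to 1.05. The interferon genes had smaller differences at 14 weeks: Ifi27 was at 2.08 and 1.49, Usp18 at 2.06 and 1.17, and Oas1a at 2.07 and 0.85. Of the 52 interferon-stimulated genes 50 had a smaller change at 14 weeks (9014 of all 18194 genes), where their median was 0.30 against 1.11 at 5 weeks. All 9 GTPases were smaller, 0.53 against 1.48. None of them was called for a difference between ages in the interaction fit, which called 6 genes in all. At an unadjusted p under 0.05, 28 of the 52 and 6 of the 9 were smaller (598 of all 18194 genes, 6.39% in either direction). A smaller change was not particular to interferon genes. Of the 109 genes called at 5 weeks 99 had a smaller absolute change at 14 weeks, and of the 44 called at 14 weeks 32 had a smaller one at 5 weeks.

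**Figure D3:**
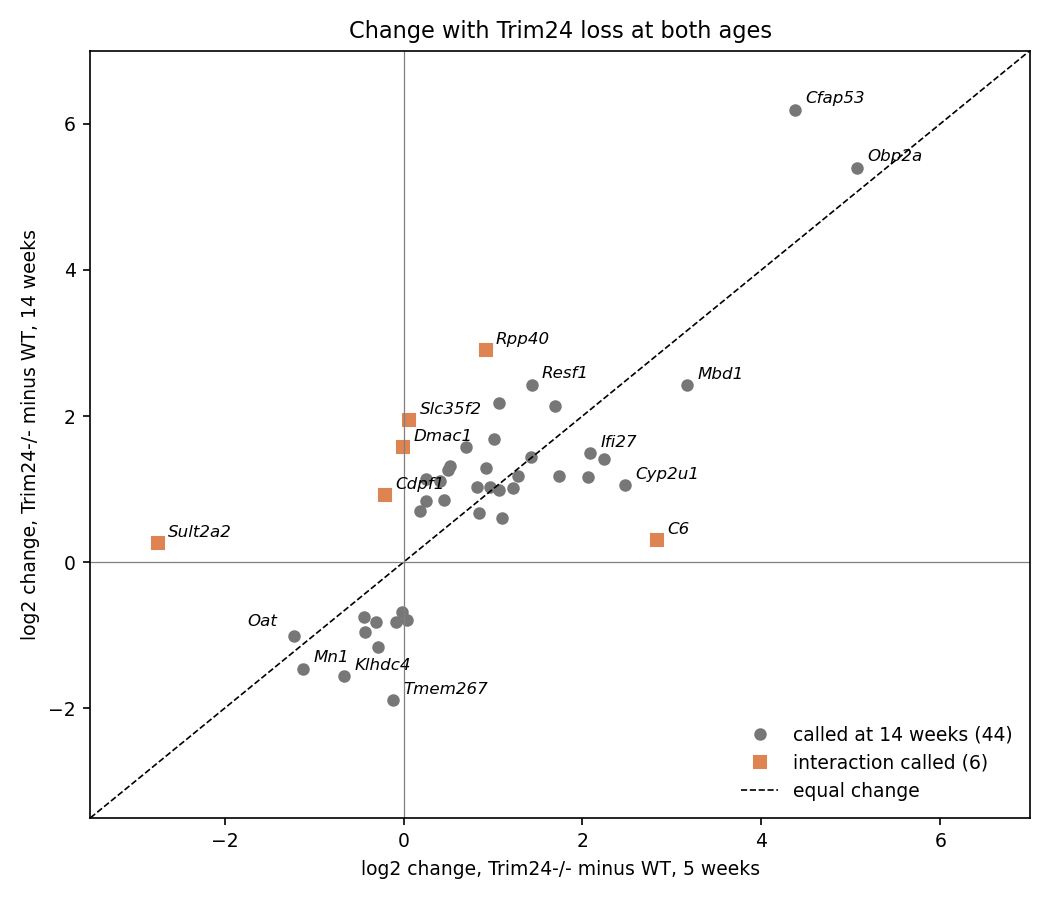
Each point is a gene, placed by its log2 difference between Trim24-/- and WT livers at 5 weeks (horizontal) and 14 weeks (vertical); grey circles are the 44 genes called at 14 weeks, orange squares the 6 with a called interaction of genotype and age, and the dashed line marks equal change. Most called genes lie on the same side of 0 at both ages, with Cfap53 and Obp2a far from the rest, while Slc35f2, Dmac1 and Cdpf1 are near 0 or below it at 5 weeks.

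A test of the difference itself, the interaction of genotype and age over all 22 arrays, called 6 genes (0.033% of those tested). Among them 4 were 14-week calls. Rpp40 at 5 weeks read 78.7 ± 5.16 in WT and 169 ± 54.1 in Trim24-/- livers (SD, n = 4; 0.92, limma, adjusted p = 0.0584), and its change was larger at 14 weeks by 1.99 ± 0.23 (SE; adjusted p = 2.51e-04). Slc35f2, Dmac1 and Cdpf1 were 0.06, -0.01 and -0.21 at 5 weeks, with interactions of 1.88 ± 0.28 (adjusted p = 0.00657), 1.58 ± 0.24 (adjusted p = 0.00657) and 1.12 ± 0.17 (adjusted p = 0.00665). C6, a terminal component of complement that is also on the male-biased list, went the other way, at 104 ± 64.4 in WT and 769.8 ± 74.4 in Trim24-/- livers at 5 weeks and 1385 ± 295 in WT and 1706 ± 303 in Trim24-/- livers at 14 weeks (interaction -2.52 ± 0.31, adjusted p = 4.00e-04). Sult2a2, a female-biased sulfotransferase, read 4935 ± 2819 in WT and 711 ± 403 in Trim24-/- livers at 5 weeks but was below the pseudocount in both genotypes at 14 weeks, at 6.39 and 10.9 (interaction 3.01 ± 0.49, adjusted p = 0.0127, lost without 5-week liver_45WT or liver_8KO). At 5 weeks Xist read 978 to 2169 and the Y-linked Eif2s3y 0.439 to 6.59 over the 8 WT and Trim24-/- arrays, far from their 14-week values. That is the pattern of female liver at 5 weeks and of male liver at 14 weeks, though the labels name no sex. Age and the pattern of sex-linked signals therefore cannot be told apart in any of these differences.

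**Figure D4:**
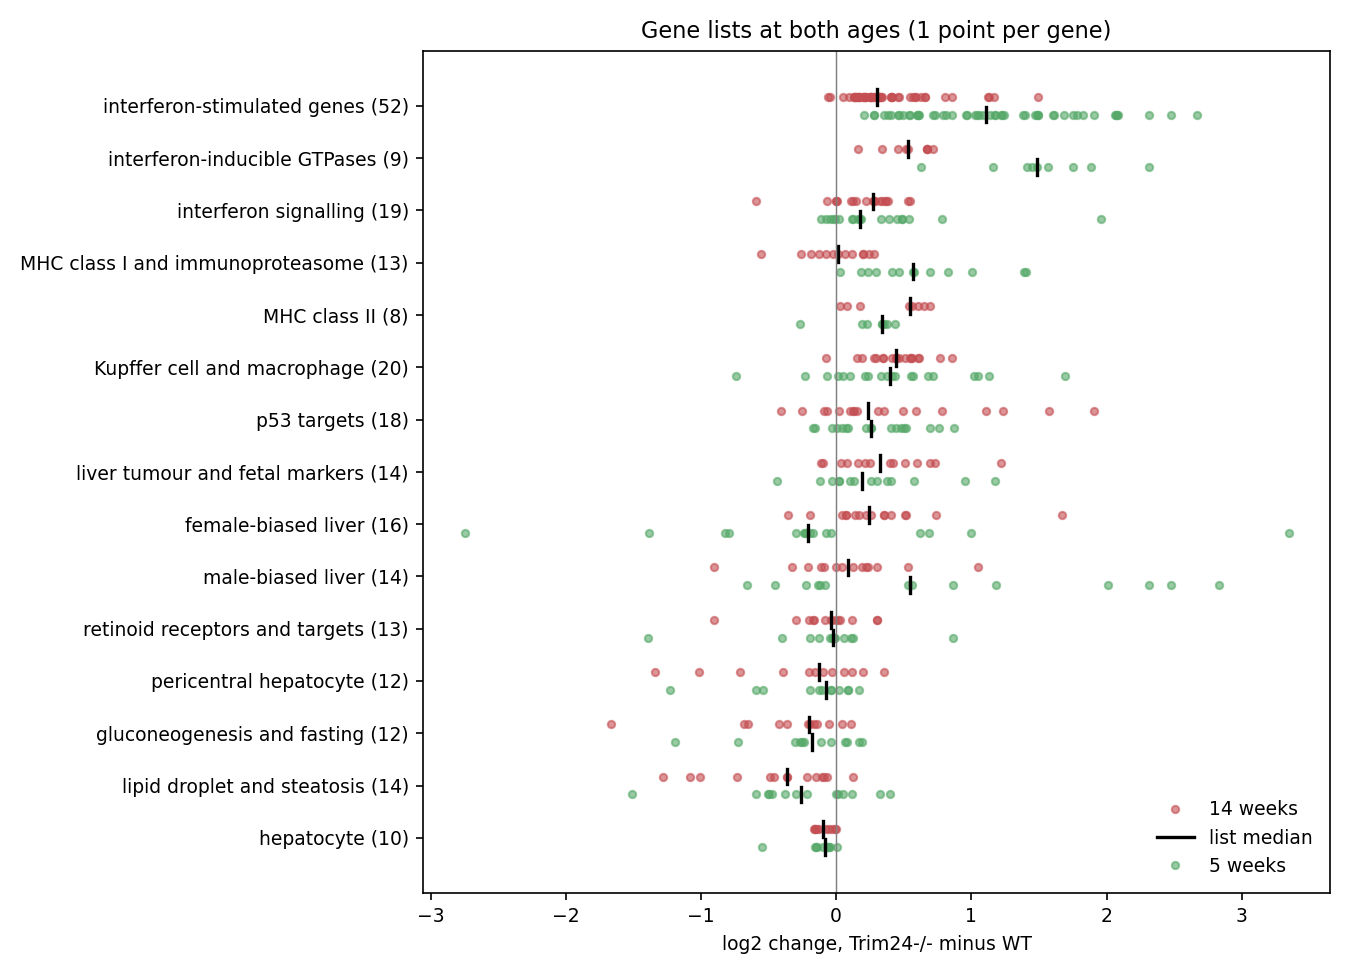
Log2 differences between Trim24-/- and WT livers for the measured members of 15 gene lists, 1 point per gene, at 14 weeks (red) and 5 weeks (green), with black ticks at list medians and the number of genes in brackets. The interferon-stimulated genes and the GTPases sit to the right of 0 at both ages, with medians of 0.30 and 0.53 at 14 weeks and 1.11 and 1.48 at 5 weeks.

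Lists of sex-biased liver genes were set beside their 5-week values. Of 14 male-biased genes only Cyp2u1 was called with limma at 14 weeks (background 0.242%; median 0.09), against 5 at 5 weeks (background 0.599%; median 0.54). Of 16 female-biased genes 0 were called at 14 weeks, 3 were higher and 1 lower at an unadjusted p under 0.05 and the median was 0.24, with Cyp2b9 at 40.1 ± 35.7 in WT and 202 ± 186 in Trim24-/- livers (SD, n = 5; 1.67, adjusted p = 0.433). Growth hormone and STAT5 genes, which set these patterns, had 0 calls, 4 higher and 0 lower of 11 genes at an unadjusted p under 0.05 (847 and 651 of all 18194 genes), a median of 0.07 and a mean of 0.31. Onecut1, a hepatocyte transcription factor of this axis, read 21.3, 31.9, 24.8, 116 and 85.9 in WT and 161, 213, 136, 193 and 205 in Trim24-/- livers, all mutant arrays above all WT arrays (1.64 ± 0.33, adjusted p = 0.0793).

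The other lists had 0 called members and medians close to 0. These were the Trim24 co-regulator complex (8 genes, median 0.05, with 2 higher at an unadjusted p under 0.05), the circadian clock (19, -0.05, 1 higher and 1 lower), acute phase (22, -0.05, 1 lower), complement (15, 0.08, 2 higher), unfolded protein and amino acid stress (15, 0.05, 4 higher and 2 lower), heat shock (9, 0.04), iron and BMP signalling (10, -0.01, 1 higher and 1 lower), periportal hepatocytes (9, -0.12) and the sex-linked genes (4, 0.02). Herpud1, of the unfolded protein response, was apart and lower at 4287 ± 734 in WT and 2679 ± 411.01 in Trim24-/- livers (-0.67, limma, adjusted p = 0.128). Markers of other cells also had no call: hepatocytes -0.10 (10 genes, all negative), T and NK cells 0.11 (13, 2 higher at an unadjusted p under 0.05), B and plasma cells 0.09 (6, 1 higher), neutrophils 0.09 (8), dendritic cells 0.04 (7, 1 higher), stellate cells and matrix 0.22 (16, 3 higher and 1 lower), endothelium 0.05 (14, 2 higher), cholangiocytes 0.10 (6), erythroid cells 0.09 (4), exocrine pancreas -0.09 (6, 2 higher) and adipocytes -0.16 (4, 1 lower).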

How the data were processed

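RNA of 22 mouse livers was amplified, labelled with biotin and hybridised to Affymetrix arrays, per the labels' protocols. The values deposited for 45101 probe sets are intensities, not logarithms. Their trimmed mean after removal of 2% at both ends was 100.001 on all arrays, so the authors had scaled them; the sources used here do not name the software. Groups came from the labels, with 1 array per animal.

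From these values, log2(signal + 16) was computed, with the probe set of highest mean log2 level over all 22 arrays for each of 18194 genes. The platform annotation lists 35890 probe sets, 34958 with 1 symbol and 932 with several; 9211 others are not listed, and only those with 1 symbol were named. Array coordinates were not used; 18032 genes matched RefSeq (GRCm38.p6) for gene order. Genes were called with lmFit and eBayes of limma 3.58.1 (R 4.3.3) where p, adjusted by Benjamini-Hochberg across all genes, was below 0.05: 10 arrays at 14 weeks, 12 at 5 weeks, 22 for the interaction, with no covariates. On simulated data with 200 changed genes the 14-week fit found 79.0% of 2-fold and 98.8% of 4-fold changes, with 6.01% false calls. The simulated spread was independent and normal, and changes were set on the log2(signal + 16) scale whatever the signal of the gene. These shares therefore describe the simulated setting and are not error rates of the calls made here.

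Named genes were the 15 largest rises, all 11 falls, up to 4 called (or 2 uncalled) members of each list and called interactions; further called genes, the flanking genes of called genes and some uncalled list members were named after their values were seen. The members and the 33 gene and 12 marker lists were chosen with earlier results of these data known. Alternatives were the pseudocount, quantile normalisation or centring, brighter genes only, probe set choice, arrays in the fit, array weights, genes near Trim24 left out, a trended variance, a minimum of 2-fold and each array left out. The Rara+/- animals entered only the spread at 5 weeks and the interaction fit.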

Additional observations from a re-analysis of the deposited data

Results flagged for a closer look

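In 14 of 254 groups of 5 arrays checked, 1 array lay far from the other 4, a share near the 5% that chance gives. For each, the array's signal and that of the others are given with the gap on the log2 scale as a share of the group's range. Among called genes these were Atp1b3 (liver_393WT at 509.8 against 403 to 428, 0.745), Slpi (liver_616WT at 55.1 against 74.7 to 83.9, 0.715), Rassf3 (liver_393WT at 434 against 342 to 351, 0.888), Gbp8 (liver_411M at 28.6 against 39.9 to 43.6, 0.777) and Phlda2 (liver_411M at 12.3 against 22.2 to 24.5, 0.838). Among other named genes they were Xist (liver_616WT at 19.4 against 30.3 to 34.7, 0.743), Uty (liver_393WT at 42.0 against 50.8 to 53.3, 0.797), Cbx5 (liver_395M at 128 against 144 to 150.2, 0.740), Psme1 (liver_613WT at 1204 against 1049.8 to 1078, 0.804), Rdh5 (liver_611WT at 85.0 against 171 to 186, 0.884), Sqle (liver_393WT at 91.9 against 267 to 346, 0.796), Got1 (liver_616WT at 5206 against 3369.8 to 3706, 0.781), Cd79a (liver_466M at 28.7 against 23.1 to 24.0, 0.837) and S100a8 (liver_395M at 127 against 6.56 to 15.8, 0.814). liver_393WT stood apart for Uty, Sqle, Atp1b3 and Rassf3, liver_616WT for Xist, Got1 and Slpi, and each of 5 other arrays for 1 or 2 genes. S100a8, a neutrophil protein, was the one case with a difference of several-fold upward, in liver_395M alone.

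The change with Trim24 loss differed between 14 and 5 weeks by the interaction test for 6 genes, on the log2 scale by -2.52 for C6, 1.12 for Cdpf1, 1.58 for Dmac1, 1.99 for Rpp40, 1.88 for Slc35f2 and 3.01 for Sult2a2. Ages and sex-linked signals cannot be told apart in these differences.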

How the results depend on the processing

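The 14-week count of 44 became 28 with a pseudocount of 1, 75 with genes above the median mean signal only and 94 with all 22 arrays in 1 fit, in which 25, 35 and 39 of the 44 were called; 9 of the 44 were too dim to be tested among the brighter genes. Under the other settings it was 31 to 59. Leaving out 1 array gave 28 to 39 calls at 14 weeks, with 28 without liver_611WT or liver_466M, 5 to 11 for the interaction (main count 6), with 11 and 10 without 5-week liver_6KO and liver_37KO and 10 without liver_611WT, and 12 to 137 at 5 weeks (main count 109). At 5 weeks the count was 34 with a pseudocount of 1. Of the 44 genes 24 were called in every fit without 1 array, and 0 of the 44 changed direction under those of the 22 alternatives that tested them. Some alternatives, such as the variance trend or all 22 arrays in 1 fit, alter the test and not the change itself. Direction could not differ in those. The interaction lost Slc35f2 and Sult2a2 with a pseudocount of 1, and Slc35f2 with the mean of all probe sets; Slc35f2 was not tested among brighter genes only. The causes were not tested. The median change of all genes was 0.00 in the values as reported, 0.00 after quantile normalisation and -0.02 after centring. Signals near or below 16 limit the size of a change: 7 called genes had a WT mean and 1 a mutant mean below it. No paired analysis was possible because the groups compared share no replicate numbers.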
